A study of Mus musculus with 5 samples.

Results

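Alpl, Sp7, Spp1, Mmp13 and Pth1r were chosen by gene symbol as genes of osteoblasts and of mineralising skeletal tissue, and they are 5 of the 4743 genes listed in each of 5 expression tables. Forelimb muscle of E15.5 embryos on the C57BL/6 strain was profiled by RNA sequencing in 3 Noggin-deficient samples (NgKo) and 2 wild type control samples (NgWt). The labels do not name the mutant allele, and they do not say whether a sample was 1 embryo or a pool, so a p-value here covers only the variation among these 5 samples, which may be technical. All 5 genes had a value above 0 in every library and passed the filter on low values (0.5 or more in 2 or more libraries), which kept 3913 of the 4743 genes.

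Noggin acts outside the cell as an inhibitor of bone morphogenetic proteins (BMPs), signals named for their capacity to induce bone. Limb bones form on a cartilage template: its chondrocytes enlarge and mineralise their matrix, and osteoblasts then replace it with bone. Sp7, also called osterix, is a zinc finger transcription factor needed for osteoblast formation. Pth1r is the receptor for parathyroid hormone and for the related peptide PTHrP, which holds back chondrocyte enlargement. Alpl, tissue-nonspecific alkaline phosphatase, removes pyrophosphate, an inhibitor of mineral growth. Spp1 encodes osteopontin, an acidic matrix protein that binds mineral and integrins, and Mmp13 encodes a collagenase that cuts fibrillar collagen. All 5 are also made by enlarging or enlarged chondrocytes, so none of them marks osteoblasts alone.

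Proximal promoters are shown because the members were each higher in NgKo, and shared regulation was not tested. The promoter table used here, taken from RefSeq, gave 8 windows for Alpl, Spp1, Mmp13 and Pth1r. The 3 printed were each the most upstream window of a gene and held motif matches, as did some windows not printed. They were chosen with the matches known, so the matches in them are a description of chosen windows. The 250 bases before the most upstream start site of Mmp13, Spp1 and Alpl are printed from RefSeq on build GRCm38.p6, 5′ to 3′ on the gene's own strand. Capitals mark matches, on either strand, to any of 7 motifs: the RUNX core ACCACA, the AP-1 site TGANTCA, the GC box GGGCGG, the BMP-response palindrome GGCGCC, the SMAD palindrome GTCTAGAC, the homeodomain site TAATTA and the cyclic AMP element TGACGTCA.
Mmp13, chr9:7272264-7272513, plus strand: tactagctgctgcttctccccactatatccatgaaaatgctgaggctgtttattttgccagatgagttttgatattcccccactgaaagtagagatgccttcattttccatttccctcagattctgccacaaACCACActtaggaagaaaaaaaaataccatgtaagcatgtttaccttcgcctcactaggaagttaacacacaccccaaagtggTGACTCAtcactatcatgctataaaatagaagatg
Spp1, chr5:104434861-104435110, plus strand: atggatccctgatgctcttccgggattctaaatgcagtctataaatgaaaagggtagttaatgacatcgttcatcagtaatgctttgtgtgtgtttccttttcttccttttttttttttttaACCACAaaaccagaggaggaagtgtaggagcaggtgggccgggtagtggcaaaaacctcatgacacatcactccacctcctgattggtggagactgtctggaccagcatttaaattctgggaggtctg
Alpl, chr4:137796385-137796634, minus strand: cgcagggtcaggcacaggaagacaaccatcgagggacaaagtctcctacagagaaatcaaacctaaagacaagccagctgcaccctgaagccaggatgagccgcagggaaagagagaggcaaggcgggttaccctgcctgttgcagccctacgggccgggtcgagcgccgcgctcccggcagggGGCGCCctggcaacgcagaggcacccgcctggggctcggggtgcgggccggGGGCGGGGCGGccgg
In the Mmp13 window a RUNX core lay at -118 to -113 and an AP-1 site at -35 to -29, counted from the start site. In the Spp1 window a RUNX core lay at -128 to -123. The Alpl window held the GGCGCC palindrome at -66 to -61 and a pair of GC boxes at -15 to -10 and -10 to -5, which share a base. Of the 5 windows not printed, the other one of Spp1 held a homeodomain site at -122 to -117, windows 2 and 3 of Pth1r held 1 and 4 GC boxes, and window 1 of Pth1r and window 2 of Alpl held no match to the 7 motifs. No match overlapped one of another motif. Of 32851 promoter windows of this length in the table, 14.0% held a RUNX core, 6.75% an AP-1 site, 32.7% a GC box, 9.59% the GGCGCC palindrome, 4.84% a homeodomain site, 1.55% a cyclic AMP element and 0.167% the SMAD palindrome. These are matches of letters and not shown to be bound sites.

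The deposited values were normalized by the authors and their unit is not named, so levels are compared between libraries and not between genes, and the read depth is unknown. The tables appear to hold only genes that differed between these libraries, by a rule that is not stated: no tested gene lay between -0.1 and 0.2 on the log2 scale, as the histogram of all changes shows, and 98.0% of the tested genes passed the test in one direction or the other. A pass is therefore no independent evidence of change. Nog, the gene of Noggin, was listed at 0.49, 0.42 and 0.42 in NgKo and at 2 and 1.99 in NgWt, a log2 change of -1.70. Where in the gene the mutation lies is not stated in the labels. Fibre genes of skeletal muscle were listed at high values in both genotypes, with summed signals of 4422 to 4624 in NgKo and 6453 to 6536 in NgWt for the 16 of 23 fibre genes in the tables.

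All 5 bone genes were higher in NgKo muscle tissue, with log2 changes from 0.39 for Pth1r to 0.71 for Alpl and a median of 0.53. All 5 passed the test (limma, Benjamini-Hochberg adjusted over the 3913 genes), against 37.9% of the tested genes called higher, 60.1% called lower and a median log2 change of -0.28 over all tested genes. For each of the 5, every NgKo library was above every NgWt library, against 38.0% of tested genes that were higher in every NgKo library and 99.3% without overlap in either direction. Given that background, the 5 of 5 is a description of these rows. None of the 5 passed a test against a 1.5-fold change (limma treat, adjusted p = 0.051 for Alpl and 1 for each of the others, and 1 of the 5, Alpl, at an unadjusted p under 0.05), which 14.5% of the tested genes passed and 4.22% passed with a rise.

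**Figure D1:**
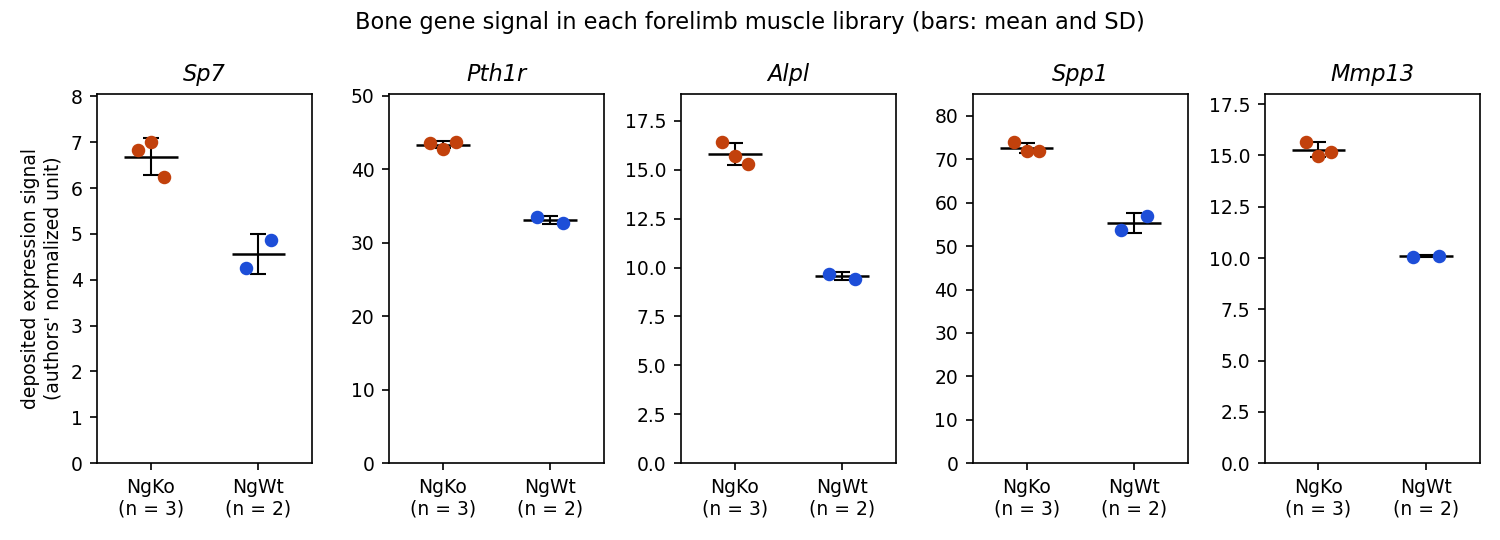
Deposited expression signal (y axis, from 0, in the authors' normalized unit) of Sp7, Pth1r, Alpl, Spp1 and Mmp13 in each library, with NgKo at the left (3 points) and NgWt at the right (2 points) of each panel; horizontal lines are means and error bars are SDs. In each panel the lowest NgKo library lies above the highest NgWt library.

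The transcription factor gene Sp7 had values of 6.82, 7.01 and 6.23 in NgKo, against 4.25 and 4.87 in NgWt. The NgKo libraries were all above the NgWt libraries, by a gap of 1.36, and the SD relative to the mean, 6.08% in NgKo and 9.61% in NgWt, was above that of each of the other 4 genes in the same genotype. Sp7 averaged 6.69 ± 0.407 in NgKo (SD, n = 3) and 4.56 ± 0.438 in NgWt (SD, n = 2), a ratio of 1.47. Its log2 change was 0.53 (SE 0.07, 95% interval 0.36 to 0.70, limma adjusted p = 0.00026). It ranged from 0.44 to 0.62 when each library was left out in turn, the lowest without NgWt replicate 1 and the highest without NgWt replicate 2.

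The receptor gene Pth1r had values of 43.56, 42.73 and 43.72 in NgKo, against 33.45 and 32.65 in NgWt. The 3 NgKo values were within 1 unit of each other, and the lowest of them was 9.28 above the highest NgWt value. Pth1r averaged 43.3 ± 0.531 in NgKo (SD, n = 3) and 33.0 ± 0.566 in NgWt (SD, n = 2), a ratio of 1.31. Its log2 change was 0.39 (SE 0.03, 95% interval 0.32 to 0.45, adjusted p = 9.7e-06), and 25.4% of the 1484 genes called higher had a smaller one.

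The phosphatase gene Alpl had values of 16.43, 15.7 and 15.29 in NgKo, against 9.69 and 9.41 in NgWt. Every NgKo library stood at least 5.6 above every NgWt library. Alpl averaged 15.8 ± 0.577 in NgKo (SD, n = 3) and 9.55 ± 0.198 in NgWt (SD, n = 2), a ratio of 1.66. Its log2 change was 0.71 (SE 0.04, 95% interval 0.62 to 0.81, limma adjusted p = 3.2e-06). As deposited it was the highest of the 5 members, and 80.0% of the genes called higher had a smaller one.

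The osteopontin gene Spp1 had values of 74.05, 71.81 and 71.98 in NgKo, against 53.62 and 56.98 in NgWt. The lowest NgKo value was 14.83 above the highest NgWt value. Spp1 averaged 72.6 ± 1.25 in NgKo (SD, n = 3) and 55.3 ± 2.38 in NgWt (SD, n = 2), a ratio of 1.31. Its log2 change was 0.39 (SE 0.03, 95% interval 0.31 to 0.47, adjusted p = 2.5e-05), larger than that of 27.4% of the genes called higher. With the trend of the change on the length of a gene's longest transcript removed, it was 0.20 (limma adjusted p = 0.00042). With the trend on median transcript length removed, it was 0.47 (limma adjusted p = 4.0e-06).

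The collagenase gene Mmp13 had values of 15.67, 14.97 and 15.18 in NgKo, against 10.07 and 10.12 in NgWt. The NgWt values were within 0.05 of each other and the lowest NgKo value was 4.85 above them. Mmp13 averaged 15.3 ± 0.359 in NgKo (SD, n = 3) and 10.1 ± 0.0354 in NgWt (SD, n = 2), a ratio of 1.51. Its log2 change was 0.59 (SE 0.03, 95% interval 0.51 to 0.67, adjusted p = 3.8e-06), larger than that of 72.0% of the genes called higher.

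**Figure D2:**
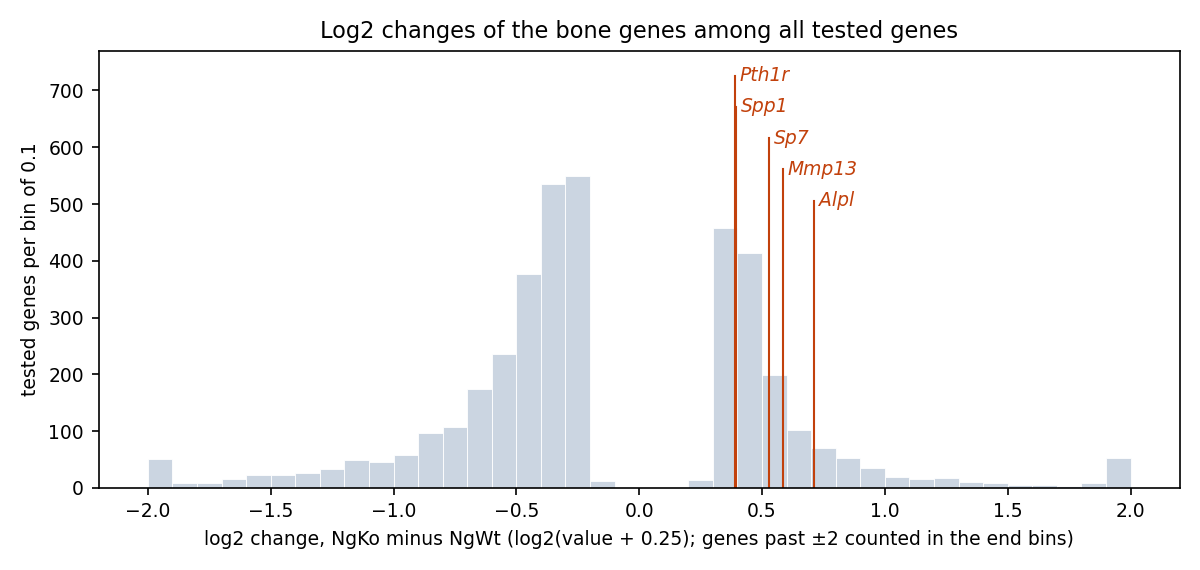
Number of tested genes (y axis) per bin of 0.1 of the log2 change, NgKo minus NgWt (x axis), with vertical lines at the changes of the 5 bone genes; genes past -2 or 2 are counted in the end bins. The bins from -0.1 to 0.2 are empty, Pth1r and Spp1 at 0.39 lie in the bin from 0.3 to 0.4, which holds 457 genes, and Alpl at 0.71 lies beyond the upper quartile of the genes called higher, 0.64.

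The size of each rise depended on how the libraries were scaled, while its direction did not under the scalings run. Median-of-ratios scaling, with factors taken from the genes in the tables, moved the median log2 change of all tested genes by 0.25, upper-quartile scaling by 0.19 and scaling to equal sums by 0.12. The share of calls that were higher was 38.7% as deposited, 53.9% with median-of-ratios, 48.0% with upper-quartile and 42.0% with equal-sum scaling, and 49.2% with the trend on the longest transcript removed. Genes called higher had a median longest transcript of 2302 bases and genes called lower one of 4477 bases. The part of length in the changes was not tested beyond these fits. Below, the length trend is that on the longest transcript. The fit on median transcript length differed from it for several genes. Under median-of-ratios scaling the change was 0.79 for Sp7, 0.66 for Pth1r, 0.98 for Alpl, 0.66 for Spp1 and 0.85 for Mmp13. Relative to the median of all tested genes, these differ by at most 0.02 from the changes as deposited.

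**Figure D3:**
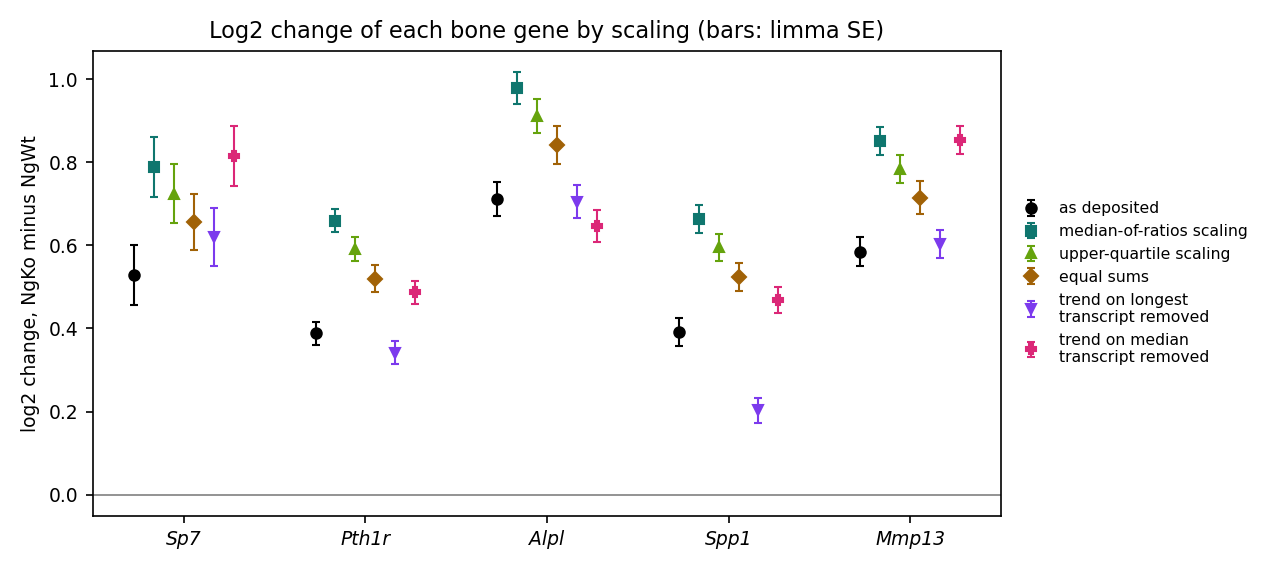
Log2 change, NgKo minus NgWt (y axis), of each bone gene as deposited, under 3 other scalings of the libraries and with either of 2 trends on transcript length removed; error bars are limma SEs from 3 NgKo and 2 NgWt libraries. Every point lies above 0, and the widest spread relative to the deposited value is that of Spp1, from 0.20 to 0.66.

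The ratio of Alpl to Pth1r and to Spp1 was higher in every NgKo library than in every NgWt library, while that of Spp1 to Pth1r overlapped between the genotypes. Ratios between members within a library hardly depend on the scaling of the libraries, but they were taken without either length fit. With the trend on median transcript length removed, the change of Alpl (0.65) was below those of Mmp13 (0.85) and Sp7 (0.82). With the length trend removed, Spp1 was at 0.20 and Pth1r at 0.34. All 10 pairs were compared by an exact two-sided permutation test over the 10 assignments of the libraries, which cannot go below p = 0.1. The log2 ratio of Alpl to Pth1r was higher by 0.32 in NgKo than in NgWt, with differences between single libraries from 0.26 to 0.37. That of Alpl to Spp1 was also higher by 0.32, with single differences from 0.22 to 0.41. The difference was 0.20 for Mmp13 to Pth1r (0.15 to 0.25), -0.19 for Spp1 to Mmp13 (-0.24 to -0.14) and 0.13 for Alpl to Mmp13 (0.06 to 0.17). These 5 pairs reached the exact permutation p of 0.1, the smallest possible, and an adjusted p of 0.2 over the 10 pairs. The ratio of Spp1 to Pth1r had a difference of 0.00 and single differences from -0.08 to 0.09 (exact permutation p = 0.9). The ratios that involve Sp7 had wider single differences, from -0.01 to 0.35 for Alpl to Sp7 and 0.004 to 0.27 for Sp7 to Spp1. For Sp7 to Pth1r they ran from -0.08 to 0.34 and for Sp7 to Mmp13 from -0.23 to 0.13. Of these only the ratio of Sp7 to Spp1 did not overlap between the genotypes (exact permutation p = 0.2). No pair passed after adjustment, which this number of libraries does not allow.

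**Figure D4:**
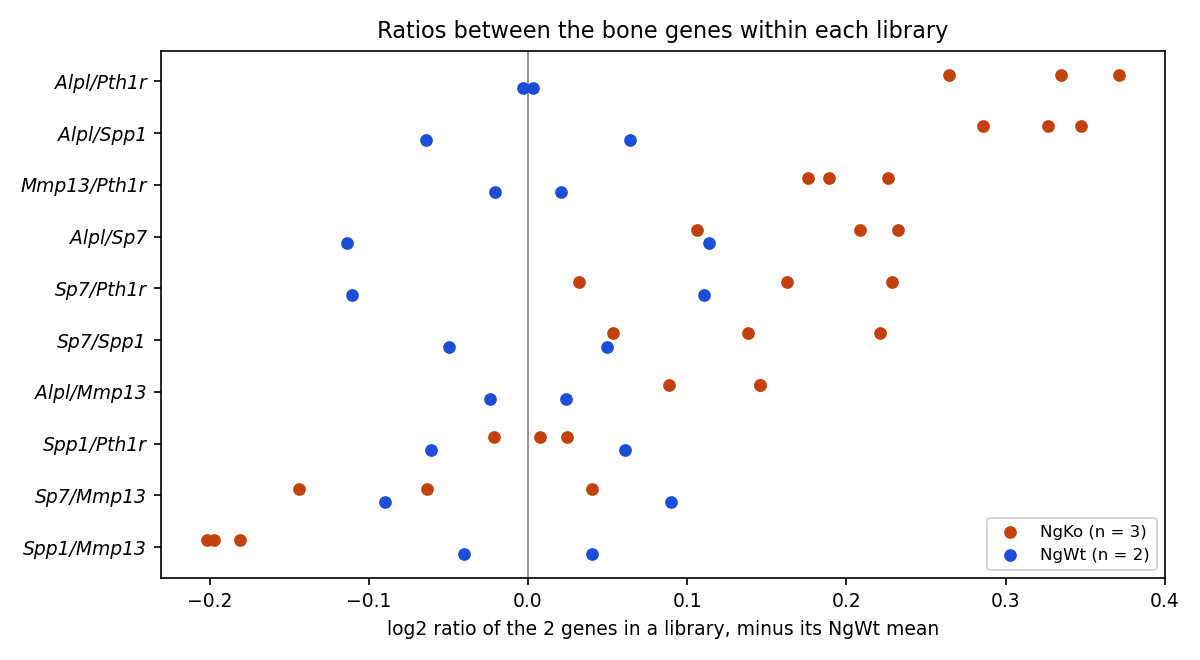
Log2 ratio of 2 bone genes within a library, minus the NgWt mean of that ratio (x axis), for the 10 pairs (y axis), with the 3 NgKo libraries above the 2 NgWt libraries in each row. The NgKo libraries lie to the right of NgWt for Alpl against Pth1r, Spp1 or Mmp13 and for Mmp13 against Pth1r. They also lie to the right, by 0.004 at the closest, for Sp7 against Spp1. They lie to the left for Spp1 against Mmp13 and on both sides of 0 for Spp1 against Pth1r.

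Likeness of profile was measured as the Euclidean distance between centred log2 values over the 5 libraries, among the 1767 tested genes with a mean of at least 5, a measure that takes in the size of the change. Among the 3 nearest genes of each member were Hist1h4i, Tle2 and Pcx for Alpl (distances 0.067 to 0.076), Mgmt, Ctxn1 and Gmfg for Sp7 (0.066 to 0.071), Rrp9, Txndc12 and Echdc2 for Spp1 (0.013 to 0.021), Gja5 and Bend5 for Mmp13 (0.049 and 0.065) and Coq4 and Pddc1 for Pth1r (0.011 and 0.020). No member was among the 3 nearest of another. Mmp13 was the nearest member to Alpl, at 0.153 with 23 genes nearer, and Spp1 and Pth1r were 0.092 apart with 153 genes nearer to Spp1 and 154 nearer to Pth1r.

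Other genes of osteoblasts and bone matrix went both ways. Of 42 such genes besides the members, 13 were in the tables and 12 were tested, of which 6 rose and 6 fell, with a median log2 change of 0.09. The rises were those of Msx2, a homeobox gene induced by BMP (1.27), Omd, of the matrix proteoglycan osteomodulin (0.66), Phex, an endopeptidase of phosphate balance (0.65), the homeobox gene Dlx6 (0.65), Sost, of the Wnt inhibitor sclerostin (0.60), and Twist1, a transcription factor (0.46). Sost was near the minimum value, at 0.61, 0.52 and 0.5 in NgKo and 0.36 and 0.2 in NgWt. It passed the filter only through NgKo, and with a stricter filter on low values 5 rises were called. The falls were those of both type I collagen genes, Col1a1 (-0.41) and Col1a2 (-0.36), Postn, of periostin (-0.29), Creb3l1, a transcription factor (-0.35), Bmp8a (-0.74) and Tnfrsf11b, of the osteoclast inhibitor osteoprotegerin (-0.59). Col1a1 had values of 3110, 3111 and 3125 in NgKo, against 4184 and 4090 in NgWt. Collagen I and periostin are made by fibroblasts and tendon cells as well as by osteoblasts. Under median-of-ratios scaling the 6 rises still passed, and 3 of the falls did (Col1a1, Bmp8a and Tnfrsf11b). With the length trend removed Postn was at 0.00 (adjusted p = 0.98).

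A list of genes linked to mineral and phosphate gave 2 rises and 4 falls among 6 tested of 22 listed (9 in the tables). Some of the 6, Car2 and Pfkp among them, do not set pyrophosphate or phosphate in the matrix, where Alpl acts. Ank, a membrane protein that delivers pyrophosphate to the outside of the cell, had values of 8.31, 8.92 and 8.27 in NgKo, against 12.44 and 12.52 in NgWt, a log2 change of -0.54. Enpp1, which makes pyrophosphate from ATP, had a log2 change of -0.38 that no longer passed under median-of-ratios scaling (-0.15, adjusted p = 0.24) or with the length trend removed (-0.03, adjusted p = 0.76). Alpl was higher and Ank lower in every NgKo library than in every NgWt library, and Ank still passed under median-of-ratios scaling (-0.27). Nt5e, which makes adenosine outside the cell, was at -0.34 (-0.08 and not called under median-of-ratios scaling), and Car2, a carbonic anhydrase, at 0.38. Pfkp, a phosphofructokinase, was at -0.27, turning to 0.12 with the length trend removed. With the trend on median transcript length removed, Pfkp was at -0.29 and still passed. Ahsg, of the plasma protein fetuin-A, a mineralisation inhibitor made in liver, was at 5.81, 6.1 and 5.23 in NgKo and listed at 0 and 0.03 in NgWt. Plasma protein genes of liver, Ahsg among them, were higher in NgKo in 11 of 11 tested, beside 37.9% of all tested genes called higher. Of these 11 only Afp and Trf reached 0.5 in NgWt. The others passed the filter only through NgKo, which set their direction. Summed signals were 120.5 to 120.9 in NgKo and 8.88 to 9.05 in NgWt, and the part of these liver genes in the Ahsg value was not tested.

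Of the genes around Pth1r, 3 rose and 6 fell among 9 tested of 28 listed for PTHrP and hedgehog signalling (10 in the tables). Pthlh, the gene of the ligand PTHrP, had values of 1.42, 1.3 and 1.78 in NgKo, against 2.15 and 2.12 in NgWt, a log2 change of -0.46 that did not pass under median-of-ratios scaling (-0.22, adjusted p = 0.14). Ihh, the hedgehog ligand of enlarging chondrocytes, was near the minimum value, at 0.4, 0.5 and 0.61 in NgKo and 0.22 and 0.21 in NgWt. Its log2 change was 0.69, and it fell below the filter without NgKo replicate 2 or 3. Ihh passed the filter only through NgKo, which set its direction. The hedgehog receptor gene Ptch1 was lower (-0.36), turning to 0.05 with the length trend removed. With the trend on median transcript length removed, Ptch1 was at -0.23 and still passed. Prkaca, a catalytic subunit of the cyclic AMP-dependent kinase downstream of Pth1r, was at -0.43, its regulatory subunit gene Prkar2b at 0.46 and Arrb2, an arrestin, at 0.41. Pde4d (-0.24) and Adcy9 (-0.35), which degrade and make cyclic AMP, lost their calls under median-of-ratios scaling, Pde4d turning to 0.01 there. Adcy9 was at -0.07 with the length trend removed and 0.00 with the trend on median transcript length removed.

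Of 11 receptor genes (integrin subunits and Cd44), 5 were in the tables and 4 were tested, and all 4 fell, in a table where 60.1% of tested genes were called lower. Cd44 had values of 18.62, 18.61 and 18.41 in NgKo, against 31.82 and 31.22 in NgWt, a log2 change of -0.76 that was -0.49 under median-of-ratios scaling. Itgav was at -0.40, Itgb3 at -0.38 and Itgb6 at -0.24. Under median-of-ratios scaling Cd44 and Itgav still passed. With the length trend removed Cd44 alone still passed among the 4 and Itgb6 turned to 0.02. With the trend on median transcript length removed, Cd44 (-0.57) and Itgav (-0.38) passed and Itgb6 was at -0.15, not called. Epidermal genes, among them keratins of the layers in which Cd44 and Itgb6 are also made, fell in the same libraries, 17 of 17 tested, and their part in the falls was not tested.

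Among other metalloproteinases and their inhibitors, 3 of 8 tested rose, 4 fell and 1, Mmp25, did not pass, of 33 listed and 10 in the tables. Mmp9, a gelatinase of osteoclasts and neutrophils, had values of 23.48, 22.93 and 23.7 in NgKo, against 13.05 and 13.17 in NgWt, a log2 change of 0.82. Mmp11, a stromelysin of stromal cells, rose by 0.87 and Mmp28 by 0.67. Adamts14, which trims the ends of procollagen, was at -0.52, Timp3, an inhibitor, at -0.31 and Mmp19 at -0.31. Adamts12 was at -0.35, turning to 0.04 with the length trend removed. With the trend on median transcript length removed, Adamts12 was at -0.12. Of these falls only that of Adamts14 still passed under median-of-ratios scaling.

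**Figure D5:**
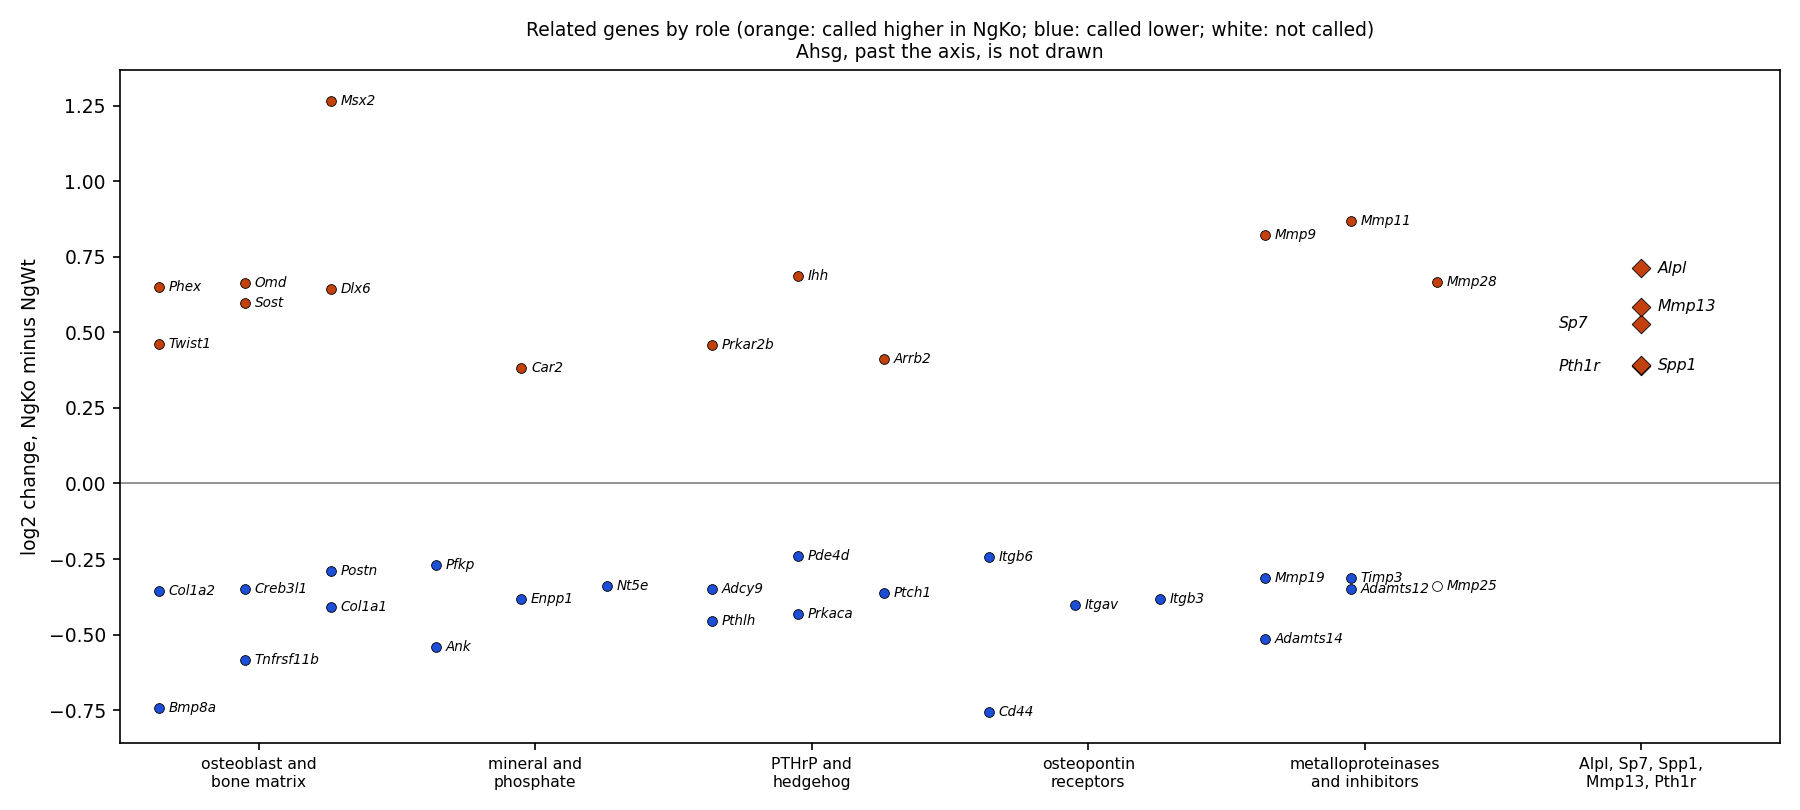
Log2 change, NgKo minus NgWt (y axis), of the tested genes named in the text in 5 groups by role, with the 5 bone genes at the right; orange marks genes called higher and blue genes called lower in NgKo, and white Mmp25, not called. Each group but the osteopontin receptors has genes on both sides of 0, and Ahsg, at 4.49, is not drawn.

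Markers of tissues that could lie in the dissected muscle moved with the genotype, and in bulk RNA fewer cells of a type and less RNA per cell cannot be told apart. Limb patterning genes, not all particular to the distal limb where digit bones form, were higher. Of 19 listed, 10 of 10 tested rose, Msx1 by 1.86 and Hoxa13 by 1.74. Beside this, 37.9% of all tested genes were called higher. Msx1, Hoxa13 and Hoxd12 were below 0.5 in both NgWt libraries and passed the filter only through NgKo. Their direction was therefore set by the filter. Summed signals of the 11 genes in the tables were 30.1 to 30.5 in NgKo and 14.5 to 15.1 in NgWt. Of 12 tested cartilage genes 2 rose, 9 fell and 1 did not pass, beside 60.1% of all tested genes called lower, among them Col11a1 (-0.41) and Col11a2 (-0.35, turning to 0.02 with the trend on median transcript length removed), and summed signals of 132.3 to 133.7 in NgKo and 167.8 to 169.3 in NgWt. Lower calls among the cartilage genes numbered 7 under median-of-ratios scaling and 6 with the length trend removed, where Col11a2 was at -0.02. The 5 tested tendon genes fell, Thbs2 by 0.49 and Col12a1 by 0.45 on the log2 scale (-0.02 with the length trend removed), with summed signals of 283 to 288 in NgKo and 369 to 372 in NgWt. Under median-of-ratios scaling 3 of the 5 tendon falls passed, and Col14a1 changed sign under at least 1 scaling or length fit. With the trend on median transcript length removed, Col12a1 was at -0.13. Of the hypertrophic cartilage genes besides the members, 2 of 11 were in the tables, Ihh and Mef2c (-0.29, turning to 0.05 with the length trend removed). With the trend on median transcript length removed, Mef2c was at -0.26. Osteoclast genes gave 3 rises and 1 fall of 4 tested, Tcirg1, a proton pump subunit, at 0.48 and Itgb3 at -0.38. Their summed signals were 21.2 to 21.7 in NgKo and 18.25 to 18.65 in NgWt. Oscar, another of the rises, was near the minimum value, at 0.35, 0.5 and 0.54 in NgKo and 0.31 and 0.24 in NgWt. Oscar passed the filter only through NgKo, which set its direction. With the length trend removed 2 rises and 0 falls were called. Calcr, too low to be tested, was at 0.07, 0.07 and 0.08 in NgKo and 0.2 and 0.25 in NgWt. Macrophage genes gave 1 rise, Cd68 (0.50), and 2 falls of 3 tested, Lgals3 at -1.02 and Cd163 at -0.59. Their summed signals were 32.85 to 34.99 in NgKo and 49.65 to 49.99 in NgWt. Lgals3 was the largest part of these sums, at 19.44, 19.8 and 17.66 in NgKo and 39.01 and 38.44 in NgWt. Cd68 was at 14.5, 14.77 and 14.68 in NgKo and 10.07 and 10.48 in NgWt, and Cd163 was below 1 in every library. No gene of these 6 lists in the tables was at 0 in any library, and list genes such as Runx2, Ibsp, Bglap and Col10a1 were not analysed here. The part of these tissues in the rises of the 5 bone genes was not tested.

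Other tissues moved as well. Endothelial genes rose in 4 of 4 tested, Cldn5 by 0.65 and Egfl7 by 0.56, and erythroid genes in 5 of 5, Hbb-y by 1.42 and Hba-x by 0.91. Of 12 nerve and glial genes tested 8 rose, Tubb3 by 2.51 and Prph by 2.46, and 4 fell, while 17 of 17 epidermal genes fell, Hrnr with a log2 change of -3.95 and Lor with -2.89. All 16 tested muscle fibre genes fell, 15 of them also under median-of-ratios scaling, with Myh3 changing sign under at least 1 scaling or length fit, and Mybpc1 had a log2 change of -0.94 and Ldb3 one of -0.89. Alb and Afp, of the plasma proteins, rose by 5.98 and 5.28. Of 15 tested genes of BMP signalling and response, 9 rose and 6 fell (9 and 3 under median-of-ratios scaling), with a median log2 change of 0.41. Nog itself is counted among the falls. The median was 0.23 with the length trend removed and 0.41 with the trend on median transcript length removed. Id1, a target gene of BMP signalling, rose by 0.49 and Id3 by 0.47. With the length trend removed Id1 was at 0.22 and Id3 at 0.23, and with the trend on median transcript length removed at 0.49 and 0.43. These counts stand beside a table in which 98.0% of tested genes were called, and nothing particular to a list is read from them. Some of the genes counted, Alb among them, passed the filter only through the genotype where they were higher.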

How the data were processed

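Each sample had 1 table with 1 value per gene, a non-negative expression signal that the authors normalized in a unit the deposited files do not name. Libraries were stranded mRNA libraries sequenced on an Illumina instrument, per the labels' protocols. STAR 2.4.2a, DESeq2 and the mouse build mm9 are named in the submitters' processing notes with no role. Not given in the sources used here are the counter, annotation, normalization and the rule by which genes were kept. Depth is unknown, so no counting interval could be given.

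The 5 genes and the gene lists were chosen with earlier results of these data known. Samples were grouped by genotype from their titles. Genes at 0.5 or more in 2 or more libraries entered limma 3.58.1 (R 4.3.3, intensity trend) on log2(value + 0.25), NgKo minus NgWt, with no covariate, adjusted by Benjamini-Hochberg over all 3913 tested genes and called below 0.05. Fold changes are on that log scale, where changes of low genes come out too small, and ratios are of group means of the deposited values. Lists are described by counts and medians, with no set test. From each list the rule named the 4 (pathway lists) or 2 (tissue lists) genes with the smallest p, all genes of a pathway list with 8 or fewer in the tables, and the 3 nearest profiles of each member; a few of these are not reported here, and other list genes were named after their values were seen. List genes outside the tables were not analysed here. Alternatives were other pseudocounts (0.1 and 1), no or a stricter filter, 3 scalings, removal of a trend on transcript length, limma without the intensity trend or with robust moderation, a test against a 1.5-fold change, the replicate block and leaving out each library. Older symbols were matched through RefSeq synonyms. Transcript lengths came from GENCODE M21 (94.0% of the genes in the tables matched), and the trend was removed by loess per library. Promoters are RefSeq's on GRCm38.p6, and no coordinates of the files' build were used. The scripts were tested on simulated data.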

Additional observations from a re-analysis of the deposited data

How the results depend on the processing

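The 5 bone genes were higher in NgKo and passed the test under all 17 alternatives other than the test against a 1.5-fold change, with adjusted p (limma) from 2.2e-07 to 0.0018. Leaving out each library in turn gave log2 changes of 0.68 to 0.74 for Alpl, 0.44 to 0.62 for Sp7, 0.35 to 0.44 for Spp1, 0.57 to 0.60 for Mmp13 and 0.37 to 0.41 for Pth1r. Against a 1.5-fold change (limma treat) 0 of the 5 passed, 1 at an unadjusted p under 0.05, at unmoved log2 changes of 0.71 for Alpl, 0.53 for Sp7, 0.39 for Spp1, 0.59 for Mmp13 and 0.39 for Pth1r, and 569 genes passed (165 higher, 404 lower), with 5 in the 5 related lists (4 higher, 1 lower), against 3836 and 38 in the test of no change. A stricter null passes fewer genes by its construction. Genes called lower numbered 2352 as deposited, 1272 with median-of-ratios scaling, 1376 with the length trend removed and 1563 with the trend on median transcript length removed, an alternative chosen after seeing the data. Calls in the related lists numbered 23 with median-of-ratios scaling, 9 of them lower against 24 as deposited, and lower calls numbered 11 and 14 with the length and median length trends removed; the cause was not tested. The ratio of Sp7 to Mmp13 differed by -0.06, and by -0.15 to 0.034 with a library left out, turning to 0.034 without NgWt replicate 2. That of Spp1 to Pth1r differed by 0.00, and by -0.057 to 0.065 with a library left out, changing sign without NgKo replicate 1 (-0.01) or NgWt replicate 1 (-0.057); the cause was not tested. Depth is unknown and the tables appear to hold selected genes, which limits every count here.

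With the replicate number as a block (replicate block), 3772 genes were called (1468 higher, 2304 lower), the 5 bone genes among them, at 0.74 for Alpl, 0.58 for Sp7, 0.40 for Spp1, 0.59 for Mmp13 and 0.38 for Pth1r. The numbers are not known to pair the samples: deviations of same-numbered samples correlated at -0.126 for number 1 and -0.0617 for number 2 over genes, and NgKo replicate 3 has no partner.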

Other observations

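Some genes of the related lists were too low to be tested, and their values are given without comparison. Tnfsf11, of the osteoclast differentiation factor RANKL, was at 0.45, 0.45 and 0.62 in NgKo and 0.31 and 0.18 in NgWt. Slc34a2, a sodium phosphate transporter, was at 0.07, 0.13 and 0.07 in NgKo and 0.41 and 0.42 in NgWt. Kl, of the FGF23 co-receptor klotho, was at 0.08, 0.06 and 0.13 in NgKo and 0.27 and 0.27 in NgWt. Mmp24, of a membrane-type metalloproteinase, was at 0.15, 0.11 and 0.12 in NgKo and 0.02 and 0.03 in NgWt. Itgb8, an integrin subunit, was at 0.14, 0.24 and 0.21 in NgKo and 0.41 and 0.38 in NgWt.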
